A study of Mus musculus with 6 samples.

Results

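Molecular chaperones are the proteins that help other proteins fold, keep them from clumping and hand damaged ones on for disposal. HSP70 proteins bind and release unfolded stretches in a cycle driven by ATP; DnaJ proteins (J proteins, also called HSP40) bring clients to them and start ATP hydrolysis, and HSP110 proteins release the ADP. HSP90 proteins finish the folding of kinases, receptors and other clients, small heat shock proteins hold unfolded proteins without ATP, and the HSP60 and HSP10 chaperonin folds proteins inside mitochondria. Heat shock factor 1 (Hsf1) raises many cytosolic chaperones when proteins unfold, while the endoplasmic reticulum (ER) has its own set, raised by the unfolded protein response. The corneal epithelium is a surface tissue exposed to light, drying and changes of temperature.

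The members described here are the protein-coding mouse genes whose symbols begin with Hsp90, with Hspa, Hspb, Hspd, Hspe or Hsph and a digit, or with Dnaja, Dnajb or Dnajc and a digit, together with Hsf1, Hsf2 and Bag3. The rule found 75 genes of the 55421 in the count files: 3 HSP90, 11 HSP70, 3 HSP110, 8 small HSP, 2 chaperonin, 4 DNAJA, 13 DNAJB and 28 DNAJC genes and the 3 regulators. Some carry the name without being classical chaperones, for example Hspb11, a protein of ciliary transport. The libraries were made from corneas of mice aged 20 weeks, 3 from wildtype (WT) mice and 3 from mice labelled heterozygous mutant PAX6. Pax6 is the eye transcription factor whose loss on one allele causes aniridia and a corneal disease, aniridia-related keratopathy. The labels name neither the mutant allele nor the strain nor how many corneas went into a library. The design text calls the libraries biological replicates; if they shared animals, the p-values would measure technical spread only.

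The mutant libraries are called M1 to M3 and the wildtype libraries W1 to W3. They held 16858005 to 21846406 counts in genes. Pax6 was lower in every mutant library, at 401 ± 49.1 CPM (counts divided by a library size scaled with TMM factors; SD, n = 3) against 790 ± 53.5 CPM in wildtype. The corneal keratin Krt12 was present in every library, at 4145 to 7163 CPM in mutant and 15314 to 21773 CPM in wildtype. Xist and Y-linked counts marked M1 as the only female library, and W1 stood apart from the other wildtype libraries, with a chi-square per degree of freedom over genes of 56.4 and 59.6 against W2 and W3, which gave 22.3 between themselves. The cell makeup also differed, in marker counts to be read beside 5.59% higher and 4.46% lower of all genes tested. Of 16 stromal (keratocyte) markers 9 rose and none fell, with a summed level of 1371 to 5683 CPM in mutant and 537 to 678 CPM in wildtype (unadjusted p under 0.05: 12 and 0; DESeq2: 10 and 0). Of 13 tested leukocyte markers 8 rose, with sums of 245 to 304 and 60.3 to 78.0 CPM. Of 10 tested corneal epithelial markers 5 fell and 2 rose, with sums of 22680 to 29159 and 38117 to 52052 CPM. The part of these shifts in the results below was not tested. In whole tissue, fewer cells of a type and less RNA per cell cannot be told apart.

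Promoter sequences are shown first, because elements read by ER stress and by heat shock lie upstream of some of the members described below. The ER stress element, CCAAT and CCACG with 9 bases of any kind between them, is bound by the factors NF-Y and ATF6 of the unfolded protein response. Searched on both strands in the 250 bases before each RefSeq start (build GRCm38.p6), it was found in 0.113% of 32851 promoters and, of the 60 members with a promoter in the table, in Hspa5, Hsp90b1 and Dnajc3, which all encode ER proteins. Their sequences follow, 5′ to 3′ on the gene's strand, with the element in capitals; in Hsp90b1 it occurs 2 times, once in each direction. They lie at chr2:34772020-34772049 (plus strand; only 30 bases, since GENCODE starts Hspa5 upstream of the RefSeq start and places the element in its first exon), chr10:86705510-86705694 (minus strand, up to the GENCODE start) and chr14:118937682-118937931 (plus strand).
Hspa5: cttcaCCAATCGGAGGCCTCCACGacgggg
Hsp90b1: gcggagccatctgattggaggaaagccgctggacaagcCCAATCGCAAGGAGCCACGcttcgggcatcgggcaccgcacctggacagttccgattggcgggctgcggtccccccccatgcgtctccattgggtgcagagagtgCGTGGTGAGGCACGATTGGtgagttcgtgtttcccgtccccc
Dnajc3: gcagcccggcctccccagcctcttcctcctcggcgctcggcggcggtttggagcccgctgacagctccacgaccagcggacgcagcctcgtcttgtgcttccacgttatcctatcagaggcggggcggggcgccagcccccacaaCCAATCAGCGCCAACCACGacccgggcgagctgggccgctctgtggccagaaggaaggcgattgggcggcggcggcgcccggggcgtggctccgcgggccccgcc

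The heat shock element, bound by Hsf1, is a row of GAA units in alternating direction. A full element of 3 units was taken as GAA, TTC and GAA with 2 bases of any kind between them, on either strand. It was found in 0.466% of the promoters and, among the 60 members searched, in Hspd1, Hspe1 and Dnajb6. Promoters of Hspa8, Hsp90aa1, Hsp90ab1 and Hsf1, among others, were not available and were not searched. A search for exact letters also misses elements with a changed unit. Hspd1 and Hspe1 lie head to head, so that 1 stretch of overlapping elements serves as the upstream sequence of both. A shorter form of 2 units, GAANNTTC or TTCNNGAA, was found in 12.8% of all promoters and in 14 of the 60 members, the 3 with the full element included. Dnaja4 was among the 14, with sites at -90 and -52 from the start. Only a selection of the 14 is printed, without Dnaja4. The sites of 5 members are printed to set the letters beside the levels given below, each as 30 bases with the units in capitals: Hspe1 at chr1:55088053-55088082 (plus), Dnajb6 at chr5:29735844-29735873 (plus), Hsph1 at chr5:149636351-149636380 (minus), Hspb1 at chr5:135887801-135887830 (plus) and Hspa1b at chr17:34959324-34959353 (minus).
Hspe1: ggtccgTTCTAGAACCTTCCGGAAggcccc
Dnajb6: agctccgaGAATCTTCCGGAAcgctagacc
Hsph1: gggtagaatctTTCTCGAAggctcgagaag
Hspb1: aGAAGTTTCcagatgggggcaGAACCTTCc
Hspa1b: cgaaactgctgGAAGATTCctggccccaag
These are matches of letters and not measured binding.

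Chaperone genes were called in both directions. Of the 64 members with enough counts to test, 4 rose in mutant corneas (Hspa5, Hsph1, Hspa8 and Hsp90b1) and 5 fell (Dnaja4, Hspb1, Dnajb2, Dnajc4 and Dnajc8), by 1.44-fold to 2.07-fold. That is 6.25% higher and 7.81% lower, beside 5.59% higher and 4.46% lower of all 15209 genes tested, or 10.1% in either direction (edgeR's quasi-likelihood test, Benjamini-Hochberg adjusted p under 0.05 over all genes). The median log2 fold change of the members was -0.11, against 0.01 over all genes. Mutant and wildtype libraries did not overlap for 27 members, 42.2% of those tested, beside 31.9% of all genes. Summed over all members the level overlapped between the groups, at 5306, 5949 and 6072 CPM in M1 to M3 and 6299, 5594 and 5458 CPM in W1 to W3. Leaving out 1 library left 0 to 7 members higher and 1 to 6 lower.

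**Figure D1:**
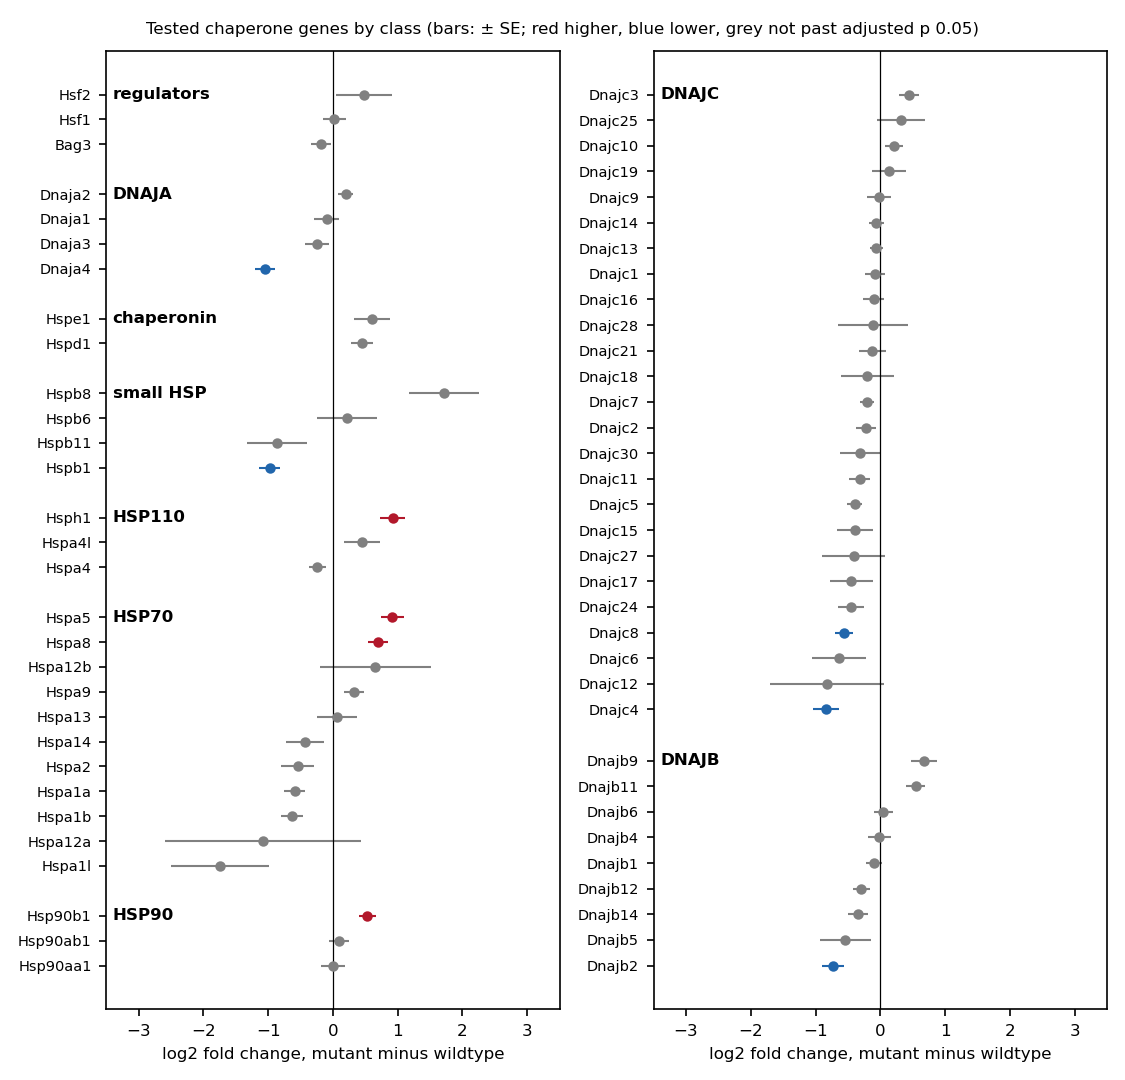
Log2 fold change (x axis, mutant minus wildtype) with its SE for the 64 tested members, grouped by class; red marks the 4 that rose, blue the 5 that fell and grey the rest. The widest bars belong to genes of low level such as Hspa12a.

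Of the 11 HSP70 genes 2 rose and none fell (edgeR; 3 were lower at an unadjusted p under 0.05, and DESeq2 called 2 lower). The shares over all genes tested were 5.59% higher and 4.46% lower by edgeR. Hspa5 (BiP), the HSP70 of the ER lumen, stood at 301, 445 and 426 CPM in M1 to M3 and 204, 233 and 183 CPM in W1 to W3, so that the lowest mutant library lay above the highest wildtype library. It rose by 0.92 ± 0.18 on the log2 scale (SE), or 1.89-fold (edgeR adjusted p = 0.015). Without M2, M3 or W3 its adjusted p was 0.069, 0.090 and 0.064. Hspa8, the constitutive HSP70 of the cytosol, which also strips clathrin from vesicles, was at 334, 448 and 474 CPM in mutant and 275, 266 and 237 CPM in wildtype, again without overlap. Its log2 fold change was 0.69 ± 0.16 (edgeR adjusted p = 0.029), and the call was lost without M2 (0.12), M3 (0.15), W2 (0.085) or W3 (0.11). For both genes M1 was the lowest mutant library. M1 also held the largest sum of stromal markers, 5683 CPM, and was the only female library. The part of either in these levels was not tested.

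The stress-inducible pair Hspa1a and Hspa1b had lower levels in mutant corneas. Hspa1b was at 411, 401 and 356 CPM in M1 to M3 and 753, 526 and 527 CPM in W1 to W3. Hspa1a was at 145, 158 and 132 CPM in mutant and 264, 211 and 181 CPM in wildtype. In both genes every mutant library was below every wildtype library and W1 was the highest of all. Neither passed the threshold: their log2 fold changes were -0.63 ± 0.17 and -0.59 ± 0.16, with edgeR adjusted p of 0.054 for Hspa1b and 0.053 for Hspa1a. DESeq2 called both, with adjusted p of 0.0025 and 0.0053, as did limma-voom (0.043 and 0.047). The edgeR adjusted p also passed for both with upper-quartile factors (0.041 and 0.040), no composition factors (0.024 and 0.030), no low-count filter (0.0038 and 0.0035) or W1 left out (0.026 and 0.0499), and was as high as 0.21 for both without M3. The pair are near-identical neighbours on chromosome 17: 49.9% of the 100-base windows of Hspa1b also occur in Hspa1a or Hspa1l, so their reads cannot be fully divided and their separate values are uncertain.

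Set against each other per kilobase of exon, the cytosolic HSP70 genes had a different balance in the genotypes. The summed level of Hspa1a and Hspa1b was 2.52, 1.89 and 1.55 times that of Hspa8 in M1 to M3 and 5.59, 4.19 and 4.51 times in W1 to W3. All mutant ratios were below all wildtype ratios, which follows from the levels above, since none of the 3 genes overlapped between the groups. The processed pseudogene Gm15459 shares 58.5% of the 100-base windows of Hspa8 and took 12217 and 7232 counts in the mutant and wildtype libraries. With its counts added to Hspa8 the ratios were 1.65, 1.26 and 1.03 in M1 to M3 and 3.73, 2.77 and 2.92 in W1 to W3, again without overlap. Reads that fit both Hspa1a and Hspa1b may be missing, since reads aligned to several places were not counted. The size of the ratios is therefore uncertain. The ratios were formed after the values were seen and are given without a test.

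**Figure D2:**
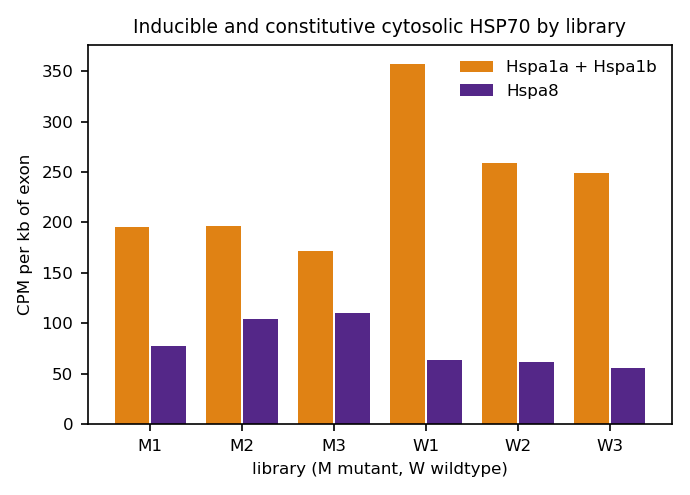
Summed level of the inducible genes Hspa1a and Hspa1b (orange) and level of the constitutive Hspa8 (purple, without counts of Gm15459) in each library, in CPM per kilobase of exon (y axis, from 0). The orange bars are highest in W1 and the purple bars in M3.

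The other HSP70 genes did not pass the threshold. Hspa9, the mitochondrial HSP70, was at 143 ± 17.05 CPM in mutant and 114 ± 16.8 CPM in wildtype (SD, n = 3 each). Hspa2, best known from the testis, was at 6.69 ± 1.09 and 9.79 ± 0.813 CPM, with no overlap and a log2 fold change of -0.55 ± 0.25 (edgeR adjusted p = 0.23). Hspa13, an HSP70-like protein of the ER, was at 10.5, 17.7 and 22.9 CPM in mutant and 12.0, 18.3 and 18.7 CPM in wildtype, and the ribosome-associated Hspa14 was lower in M1 than in any other library, at 5.45 CPM. Hspa12a reached 8.77 CPM in W3 and 2.39 CPM or less elsewhere. W3 also held 196 CPM of skeletal muscle markers, mostly Ttn, against 9.41 to 19.0 CPM in the other libraries; their part was not tested.

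Of the HSP110 genes, which recharge HSP70 and with it pull apart aggregates, Hsph1 rose. It was at 50.1, 68.7 and 84.7 CPM in M1 to M3 and 36.2, 32.8 and 38.3 CPM in W1 to W3, and the groups did not overlap. The log2 fold change was 0.92 ± 0.19, or 1.90-fold (edgeR adjusted p = 0.022). Left-out libraries ended the call for M2 (0.082), M3 (0.092), W2 (0.083) and W3 (0.056). Hspa4, the most abundant of the class, went the other way without passing, at 165, 205 and 199 CPM against 247, 218 and 207 CPM. The level of Hsph1 per kilobase was 0.230 to 0.325 of that of Hspa4 in mutant and 0.112 to 0.141 in wildtype. This separation follows from the levels just given, with Hsph1 wholly above and Hspa4 wholly below wildtype, and was not tested. Hspa4l, at 24.8 CPM on average in mutant and 18.1 CPM in wildtype, overlapped between the groups.

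Among the HSP90 genes Hsp90b1 (endoplasmin), the ER form that folds integrins and Toll-like receptors, rose. It was at 362, 430 and 450 CPM in M1 to M3 and 261, 293 and 306 CPM in W1 to W3, without overlap. Its log2 fold change of 0.53 ± 0.13 was the smallest of the 9 called genes (edgeR adjusted p = 0.042). The call was lost when any library but W1 was left out (adjusted p of 0.053 for M1, 0.15 for M2, 0.20 for M3 and 0.10 for W2 and for W3), with upper-quartile factors (0.051), with no composition factors (0.062) and with sex as a covariate (0.054). Hsp90ab1, the constitutive cytosolic form, was the most abundant member in both genotypes per kilobase of exon, and stood at 1353 ± 73.9 CPM in mutant and 1268 ± 208 CPM in wildtype. Hsp90aa1, the inducible form, was at 283 ± 46.7 and 283 ± 61.4 CPM (SD, n = 3). Neither cytosolic form passed the test, with edgeR adjusted p of 0.77 and 1.0. Of the 100-base windows of Hsp90aa1, 47.5% also occur in other transcripts, mainly of pseudogenes, so its level is uncertain.

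The small HSP class was led by Hspb1, which binds unfolded proteins and steadies actin filaments. Hspb1 was at 215, 234 and 197 CPM in M1 to M3 and 525, 377 and 369 CPM in W1 to W3. Every mutant library lay well below the lowest wildtype library. It fell by 0.98 ± 0.17 on the log2 scale, or 1.97-fold (edgeR adjusted p = 0.0096), and the adjusted p was above the threshold only without M3 (0.059). Per kilobase of exon Hspb1 was second only to Hsp90ab1 in wildtype (411 against 423) and in mutant (209 against 451). It made up 94.6% to 98.5% of the class's summed CPM in wildtype libraries and 83.8% to 88.8% in mutant libraries. A processed pseudogene, Hsp25-ps1, shares 42.7% of the 100-base windows of Hspb1 and took 43 and 103 counts in all in the mutant and wildtype libraries, against 12098 and 22799 for Hspb1.

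Hspb8, which works with Bag3 to send misfolded proteins to autophagy, had the largest fold of the tested members that were higher, without passing the test. It was at 31.6, 20.6 and 30.2 CPM in M1 to M3 and 2.21, 13.8 and 9.15 CPM in W1 to W3. The groups did not overlap, but the wildtype libraries spread widely, with W1 lowest. The log2 fold change was 1.71 ± 0.54 (edgeR adjusted p = 0.090). Without W1 it was 1.26, with an adjusted p of 0.019, and it was called by DESeq2 (0.0054), by limma-voom (0.034) and by edgeR with no low-count filter (8.0e-10) or without M1 and W1 together (0.046). The smooth muscle and pericyte markers were also lowest in W1, at 12.8 CPM in sum against 96.7 and 120 CPM in W2 and W3 and 117 to 304 CPM in the mutant libraries; of 8 tested none passed (edgeR; 1 higher at an unadjusted p under 0.05 and 1 by DESeq2). Vascular endothelial markers (2.84 CPM against 39.5 to 133) and melanocyte and iris markers (9.82 CPM against 189 to 414) were lowest in W1 too. Their part in the level of Hspb8 was not tested. Hspb6, a small HSP of muscle, ranged from 2.50 to 6.49 CPM over the 6 libraries with both ends of the range in different genotypes, and the related alpha-B-crystallin Cryab, which the rule does not include, was at 16.3 to 25.0 CPM in mutant and 16.8 to 22.1 CPM in wildtype.

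Both chaperonin subunits were higher on average in mutant corneas without passing the test. Hspd1 (HSP60) was at 41.0, 56.8 and 51.9 CPM in M1 to M3 and 35.7, 41.8 and 32.3 CPM in W1 to W3. Its partner Hspe1 (HSP10) was at 12.7, 17.6 and 14.9 CPM and 7.55, 13.7 and 8.50 CPM. In each gene M1 lay below W2, so the groups overlapped. The log2 fold changes were 0.45 ± 0.17 and 0.60 ± 0.28 (edgeR adjusted p of 0.15 and 0.24). The paired heat shock elements of their shared promoter are those printed above.

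**Figure D3:**
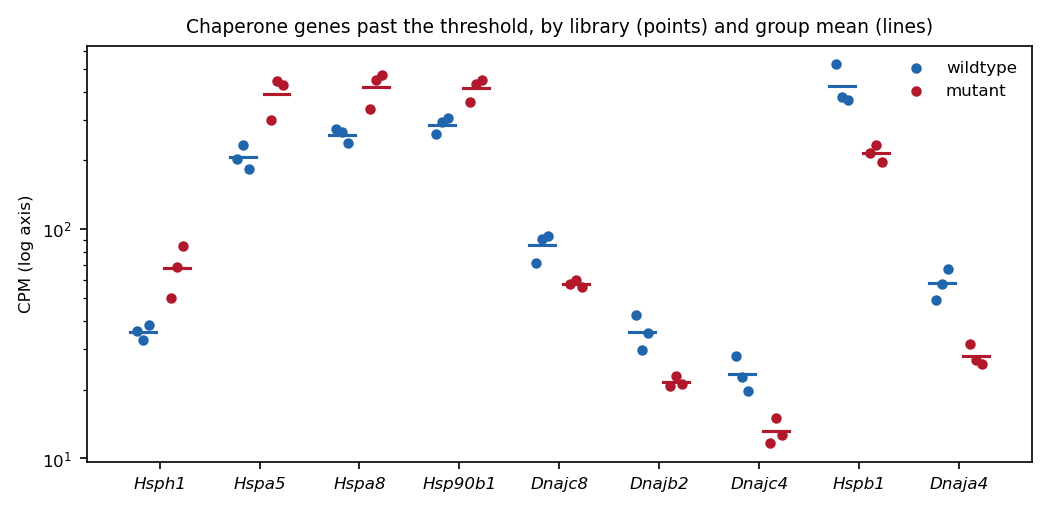
Level in each library (points, CPM on a log axis) and group mean (lines) of the 9 members past the threshold, ordered by fold change. In all 9 genes, which were picked by the test on these same libraries, the 3 mutant points (red) lie clear of the 3 wildtype points (blue). The groups did not overlap for 31.9% of all genes tested.

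Of 38 tested DNAJ genes 4 fell and 0 rose (edgeR; 3 were higher at an unadjusted p under 0.05, and DESeq2 called 1 higher, Dnajb11), and 30 had a log2 fold change below 0, beside 7490 of 15209 genes in all. Of all genes tested 4.46% fell and 5.59% rose. Dnaja4, a cytosolic partner of HSP70, was at 31.5, 27.0 and 25.9 CPM in M1 to M3 and 49.4, 58.1 and 67.0 CPM in W1 to W3. It had the smallest p of all members, a log2 fold change of -1.05 ± 0.16 or 2.07-fold lower, an edgeR adjusted p of 0.0056, and passed with each library left out in turn (0.0018 to 0.035). Its exons overlap 1581 bases of Wdr61 on the opposite strand, so reads of the 2 genes cannot be told apart if the counting ignored strand. The rest of its class did not pass: Dnaja2 was at 158 ± 11.1 and 138 ± 6.95 CPM, and Dnaja1 and the mitochondrial Dnaja3 overlapped between the groups.

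Dnajb2, a J protein with ubiquitin-binding motifs that steers clients to the proteasome, was at 20.6, 23.0 and 21.2 CPM in M1 to M3 and 42.4, 29.7 and 35.4 CPM in W1 to W3. It fell by 0.73 ± 0.17 on the log2 scale (edgeR adjusted p = 0.030), a call lost without M1 (0.10), M2 (0.087), M3 (0.13) or W3 (0.065). Dnajc4 was at 11.6, 15.1 and 12.7 CPM against 28.1, 22.7 and 19.6 CPM, and fell by 0.84 ± 0.20 (edgeR adjusted p = 0.035; lost with M1 left out at 0.11, M2 at 0.068, M3 at 0.14, W1 at 0.057 and W2 at 0.085). Dnajc8, a J protein of the spliceosome, was at 57.6, 60.2 and 56.0 CPM against 71.2, 90.8 and 93.8 CPM, and fell by 0.56 ± 0.14 (edgeR adjusted p = 0.038; lost with M1 left out at 0.12, M2 at 0.11, M3 at 0.15 and W2 or W3 at 0.11, and with no composition factors at 0.064). With sex as a covariate, which sets M1 aside, the adjusted p of these 3 genes was 0.11, 0.12 and 0.11.

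By CPM over all 6 libraries, the most abundant gene of each DNAJ class gave no call: Dnaja2, Dnajb1 and Dnajc13. Dnaja4, which fell, was among the 2 most abundant DNAJA genes. Per kilobase of exon Dnajc8, which also fell, was the highest DNAJC gene. Dnajb1, the classic heat-induced HSP40, was at 94.1, 101 and 116 CPM in M1 to M3 and 116, 113 and 105 CPM in W1 to W3, a log2 fold change of -0.10 ± 0.12 (edgeR adjusted p = 0.68). Dnajb6, which suppresses aggregates and carries the full heat shock element printed above, was at 100 ± 17.3 and 96.9 ± 3.68 CPM (SD, n = 3), and 31.0% of its 100-base windows recur in pseudogenes. Dnajc13, which acts on endosomes, was at 98.8 ± 4.51 and 103 ± 2.06 CPM. Dnajc5, the cysteine string protein that guards secretory vesicles, was lower in every mutant library, at 64.2, 60.2 and 70.6 CPM against 90.6, 82.5 and 82.7 CPM, and missed the threshold (edgeR adjusted p = 0.073). Over the 25 tested DNAJC genes log2 fold changes ran from -0.84 to 0.44 with a median of -0.21, and 7 had all mutant libraries below all wildtype libraries against 1 with all above. Over all genes tested these shares were 14.7% and 17.1%.

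The 1 DNAJC gene with all mutant libraries above was Dnajc3, and it belongs to the ER. Grouped by compartment, 8 members act in or on the ER lumen, a grouping made after the values were seen. Of these Hspa5 and Hsp90b1 rose, beside 5.59% of all genes tested, and 7 had a log2 fold change above 0, beside 7719 of 15209 genes in all. Their median was 0.48, against 0.01 over all genes. Dnajb9 (ERdj4), which marks misfolded proteins for removal, was at 17.1, 19.3 and 20.4 CPM in M1 to M3 and 13.8, 12.4 and 9.52 CPM in W1 to W3 (edgeR adjusted p = 0.078). Dnajb11 (ERdj3), the main J partner of Hspa5 on new chains, was at 45.8, 44.3 and 48.4 CPM and 36.3, 32.4 and 26.2 CPM (edgeR adjusted p = 0.060). Dnajc3, an inhibitor of the kinase that halts translation in ER stress, was at 90.7, 102 and 117 CPM and 66.3, 89.8 and 72.5 CPM (edgeR adjusted p = 0.12). In all 3 the groups did not overlap, although none passed. For 5 of the 8 every mutant library lay above every wildtype library, beside 17.1% of all genes tested. The disulfide reductase Dnajc10 and Hspa13 overlapped, and Dnajc1 had a log2 fold change of -0.08. The summed level of the 8 was 897, 1139 and 1163 CPM in mutant and 655, 751 and 695 CPM in wildtype. Dnajb12 and Dnajb14, J proteins of the ER membrane that face the cytosol, did not overlap between the groups and were lower in mutant corneas, at 45.6 to 52.8 against 56.0 to 68.1 CPM and 20.3 to 26.3 against 28.3 to 31.7 CPM (edgeR adjusted p of 0.22 for both).

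**Figure D4:**
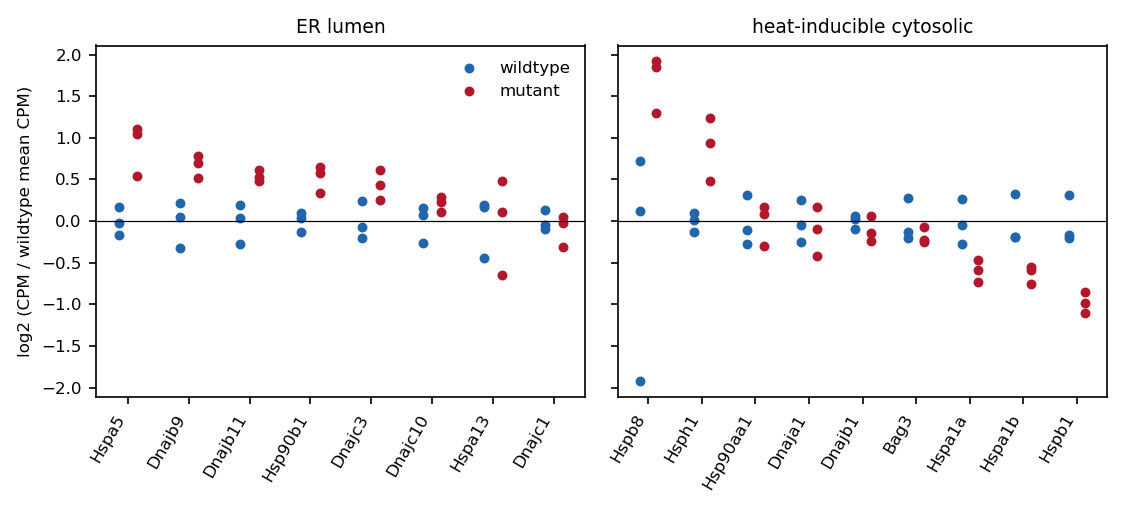
Level of each gene in each library relative to its wildtype mean (y axis, log2) for 8 members of the ER lumen and 9 heat-inducible cytosolic members, mutant in red and wildtype in blue. In the left panel most red points lie above 0, while in the right panel Hsph1 and Hspb8 lie above and Hspa1a, Hspa1b and Hspb1 below.

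Other genes of ER folding and the unfolded protein response were counted as a list, which was chosen with earlier results of these data known. Of its 28 tested genes 5 rose and 1 fell, with a median log2 fold change of 0.33, against 0.01 over all genes. Of all genes tested 5.59% rose and 4.46% fell. Herpud1, which helps clear misfolded ER proteins, rose 2.83-fold to 107 ± 19.7 CPM (edgeR adjusted p = 0.0025). The stress sensor kinase Ern1 rose 1.93-fold, the disulfide isomerase P4hb 1.97-fold to 470 ± 80.2 CPM, the lectin chaperone Calr 1.69-fold to 802 ± 138 CPM and the transcription factor Xbp1 1.60-fold. The gene that fell, Dnlz, acts in mitochondria as an escort of Hspa9 and does not belong to the ER. Genes of the PERK arm gave no call: Atf4 was at 62.3 to 108 CPM in mutant and 86.1 to 103 CPM in wildtype, and Ddit3 at 5.33 to 8.26 and 3.01 to 4.65 CPM, without overlap and 1.69-fold higher (edgeR adjusted p = 0.22). Chac1, a target of Atf4 and Ddit3, was at 14.2, 21.6 and 31.5 CPM in M1 to M3 and 17.2, 8.12 and 8.34 CPM in W1 to W3, a log2 fold change of 1.002 ± 0.38 with W1 above M1 (edgeR adjusted p = 0.15). The ER stress element printed above was found upstream of 7 of the 26 genes of this list with a promoter in the table, Calr, Canx, Creld2, Derl3, Ero1b, Pdia6 and Syvn1. Of the 5 genes that rose, only Calr is among these 7.

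No regulator of the cytosolic heat shock response passed the test. Hsf1 was at 29.5, 25.7 and 28.6 CPM in M1 to M3 and 29.1, 31.7 and 21.8 CPM in W1 to W3, a log2 fold change of 0.02 ± 0.18 (edgeR adjusted p = 0.96). Hsf2 was at 5.46 ± 0.114 CPM in mutant and 3.90 ± 2.19 CPM in wildtype, where W3 alone reached 6.42 CPM. Bag3, which links HSP70 and Hspb8 and is itself a target of Hsf1, was at 155, 139 and 137 CPM against 198, 149 and 142 CPM, with W1 highest (log2 fold change -0.18 ± 0.15). These 3 did not share a direction. Another group, made after the values were seen, held 9 heat-inducible cytosolic members: Hspa1a, Hspa1b, Hspb1, Hspb8, Hsph1, Hsp90aa1, Dnaja1, Dnajb1 and again Bag3. Among the 9, Hsph1 rose, Hspb1 fell, and 6 had a log2 fold change below 0, beside 7490 of 15209 genes in all. The summed level of the 9 was lower in every mutant library, at 1362, 1467 and 1408 CPM against 2161, 1734 and 1761 CPM in wildtype. The gap lies in Hspa1a, Hspa1b and Hspb1, which were already given above as lower in every mutant library. Hsph1 and Hspb8 lay wholly above wildtype, and Hsp90aa1, Dnaja1, Dnajb1 and Bag3 overlapped between the groups. Immediate early genes, which respond within minutes to handling or injury, were lower in sum in mutant libraries, at 1521 to 1783 CPM against 2179 to 2649 CPM. Of 17 tested 2 fell, Fos and Ier2, and none rose (edgeR; 6 lower and 0 higher at an unadjusted p under 0.05, 5 and 0 by DESeq2, 3 and 0 by limma-voom), and for 6 every mutant library lay below every wildtype library. Of all genes tested 4.46% fell, 5.59% rose and 14.7% had every mutant library below every wildtype library. The part of sample handling in the levels of Hspa1a, Hspa1b and Hspb1 was not tested.

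The 8 subunits of the TRiC chaperonin, which folds actin and tubulin, had log2 fold changes of -0.22 to 0.04, and 0 passed by edgeR, by DESeq2 or at an unadjusted p under 0.05. The same held for the 6 prefoldin subunits that feed it, at -0.43 to -0.03. Of 29 HSP90 and HSP70 co-chaperones Fkbp5 rose and Bag2 fell (edgeR; 2 higher and 6 lower at an unadjusted p under 0.05, 1 and 3 by DESeq2). All mutant libraries lay below all wildtype libraries for 7 of the 29 and above them for 1. Of all genes tested 14.7% lay wholly below and 17.1% wholly above, while 4.46% fell and 5.59% rose. Fkbp5, an immunophilin that damps steroid receptors and is induced by glucocorticoids, was at 111, 48.3 and 118 CPM in M1 to M3 and 23.6, 15.95 and 16.8 CPM in W1 to W3, 4.91-fold higher (edgeR adjusted p = 0.0052). Bag2, an inhibitor of the ubiquitin ligase Stub1, was at 14.99 ± 1.04 and 29.4 ± 2.79 CPM (SD, n = 3), 1.96-fold lower (edgeR adjusted p = 0.0070).

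**Figure D5:**
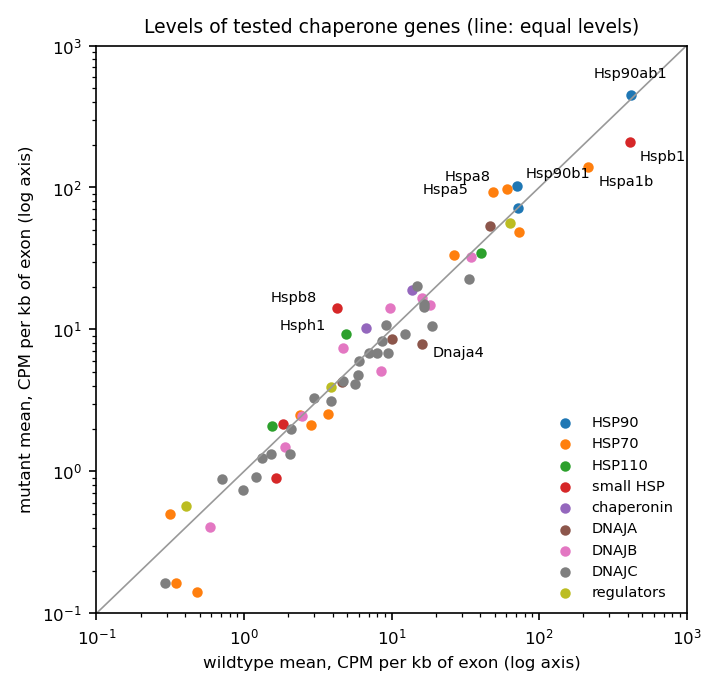
Mean level of the 64 tested members in wildtype (x axis) and mutant (y axis), in CPM per kilobase of exon on log axes, coloured by class. Hsp90ab1 and Hspb1 are the highest in wildtype, and Hspb1, Hspa1b and Dnaja4 fall below the line of equal levels while Hspa5, Hspa8, Hsph1 and Hspb8 lie above it.

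Of the 75 members, 11 had too few counts to test. Hspb3, Dnajb8, Dnajc5b and Dnajc5g had no count in any library. A total of 0 in a group allows 3 counts, or 0.0530 CPM in mutant and 0.0556 CPM in wildtype. Dnajb7 had 1 count in mutant and Hspb9 1 count in wildtype, Dnajc22 2 counts in wildtype and Dnajb13, a J protein of sperm and cilia, 5 counts, all in M3. Dnajb3, Hspb2 and Hspb7 had 19, 27 and 18 counts in mutant and 9, 12 and 22 in wildtype. Several of these are best known from testis or striated muscle.

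Positions are given on GRCm38. Among genes that rose, Hspa5 (ENSMUSG00000026864) lies on chromosome 2 from 34771970 to 34777547, Hspa8 (ENSMUSG00000015656) on chromosome 9 from 40800984 to 40810087, Hsph1 (ENSMUSG00000029657) on chromosome 5 from 149614287 to 149636376 and Hsp90b1 (ENSMUSG00000020048) on chromosome 10 from 86690209 to 86705509. Among those that fell, Hspb1 (ENSMUSG00000004951) lies on chromosome 5 from 135887919 to 135889563, Dnaja4 (ENSMUSG00000032285) on chromosome 9 from 54698873 to 54716315, Dnajb2 (ENSMUSG00000026203) on chromosome 1 from 75236406 to 75245692, Dnajc4 (ENSMUSG00000024963) on chromosome 19 from 6987911 to 6992572 and Dnajc8 (ENSMUSG00000054405) on chromosome 4 from 132535550 to 132553742. Counts cover the annotated exons of a gene as a whole. Exons of 28 members overlap those of another gene, among the called ones Dnaja4, Hspa8 (small nucleolar RNA genes inside it) and Hsp90b1 (Gm15344 and Gm25745 on its own strand and 1810014B01Rik, transcribed the other way), which leaves those counts uncertain.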

How the data were processed

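RNA of 6 mouse corneas' libraries was sequenced as paired reads of 100 nucleotides with a stranded total RNA kit for small inputs, per the labels' protocols. Trim Galore, HISAT2, SAMtools, HTSeq and edgeR are named with build GRCm38, per the submitters' processing notes; the sources used here give neither versions nor whether counting used strand. Each deposited table lists whole-number counts per Ensembl gene, not normalized by the authors. The 5 summary lines (30.1% not aligned, 16.3% in no feature, 3.50% aligned to several places, 2.75% of low quality, 0.679% ambiguous) stayed out of all totals. Symbols, exons and lengths came from GENCODE M21, which matched 55240 of 55421 IDs.

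Counts were filtered with filterByExpr (minimum count 10, total 15), scaled by TMM and tested over all 15209 genes that passed with edgeR 4.0.16 in R 4.3.3 (quasi-likelihood, Benjamini-Hochberg), genotype being the only term. CPM uses these scaled library sizes; CPM per kilobase divides by merged exon length. SE is the log2 fold change over the square root of F. Alternatives were RLE, upper-quartile and no factors, DESeq2 1.42.0, limma-voom 3.58.1, other filters, sex as a covariate, leaving out mitochondrial and structural RNA genes, a threshold of 0.01 and leaving out libraries. The script was tested on simulated data. The members and lists were chosen with earlier results of these data known. Named are members past the threshold, the 2 most abundant of each class, main stress-response members and those with 3 counts or fewer in a group; others were named after their values were seen. Copies were sought as exact 100-base windows of each member's longest coding transcript in transcripts of other genes, same strand only. Intervals and floors cover counting error only.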

Additional observations from a re-analysis of the deposited data

How the results depend on the processing

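Under the 17 alternatives, 27 named members with a fit gave 459 values, of which 441 kept their direction and 374 also their side of the threshold. The threshold of 0.01 reused the main fit, so no direction could change there and no uncalled gene could become called. The fit with sex as a covariate nearly repeated the one without M1, the only female library. Both points raise the counts of values that stayed the same. Against 4 members higher and 5 lower, a threshold of 0.01 left 0 and 2 (edgeR; 9 and 9 at an unadjusted p under 0.05, 6 and 8 by DESeq2), upper-quartile factors and DESeq2 each called 8 lower, and sex as a covariate left 2 lower. Leaving out each library gave 0 to 7 higher and 1 to 6 lower, with none higher without M2, M3 or W3 (7, 7 and 9 higher at an unadjusted p under 0.05 by edgeR) and 7 higher without W1. The 18 reversals were of 4 genes with values near 0. Hsp90aa1 had -0.013 with RLE factors, -0.039 with upper-quartile factors, -0.0024 with no composition factors, -0.013 with DESeq2, -0.0019 with no low-count filter, -0.0082 without mitochondrial and structural RNA genes and -0.0061 without M1 and W1 together; leaving out 1 library gave -0.12 to 0.16. Hsf1 had -0.013 with upper-quartile factors and -0.020 with sex as a covariate, and -0.15 to 0.14 with 1 library left out; Dnajb6 ranged from -0.058 to 0.18 and Hsp90ab1 from -0.011 to 0.23. The cause was not tested. No scaling moved the median of all genes by more than 0.1. No paired analysis was possible because the labels number no replicates: M1 to M3 and W1 to W3 are in accession order, and nothing ties a mutant to a wildtype library. A fit without 1 library has less power, which can end a call on its own.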

Other observations

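The pseudogene Gm15459, a processed copy of Hspa8 on which 58.5% of the 100-base windows of Hspa8 recur, took 12217 counts in the mutant and 7232 in the wildtype libraries, against 24065 and 13966 for Hspa8. It was called higher with a log2 fold change of 0.67 ± 0.14 (edgeR adjusted p = 0.021), close to the 0.69 of Hspa8. Counts of Hspa8 are therefore uncertain in level, and how many of the reads given to Gm15459 belong to Hspa8 was not tested. Gm12346, a copy of Hsp90aa1, took 267 and 178 counts, and AC117239.2, which shares 20.4% of the windows of Hspe1, took 536 and 321.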
